A study of Mus musculus with 15 samples.

Results

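The genes of the NF-kB subunits and of the feedback inhibitors that NF-kB itself induces were followed in tumor-associated macrophages (TAMs). Members were the rows of the expression table whose symbol is 1 of 10 names, and all 10 were found among the 55335 genes listed. They are the subunit genes Nfkb1, Nfkb2, Rel, Rela and Relb, the IkB family genes Nfkbia, Nfkbie, Nfkbiz and Bcl3, and the deubiquitinase gene Tnfaip3. The TAMs were CD11b+ F4/80high cells sorted from orthotopic tumors, which Hepa1-6 cells, a mouse hepatoma line carrying luciferase, formed in the liver of C57BL/6 mice. There were 15 samples, 5 from tumors of control cells, 5 from tumors whose cells overexpressed miR-144 and 5 from tumors whose cells overexpressed miR-451a. The lentiviral vectors were given to the tumor cells before inoculation and not to the macrophages, and all 3 groups share the luciferase label and the digestion of the tumor before sorting. Age and sex of the mice are not given in the labels. The labels do not say whether the samples of a group came from separate mice, and a legend in the study gives fewer samples per group for this assay than the labels do, so some samples may share a mouse. The p-values, SDs and intervals at n = 5 therefore measure only the spread between these samples, which may be technical.

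NF-kB dimers are held in the cytoplasm by IkB proteins until kinases of the IKK complex mark an IkB for destruction, which frees the dimer to enter the nucleus. In the canonical branch the freed dimers contain Rela or Rel with the p50 product of Nfkb1, and in the alternative branch they contain Relb with the p52 product of Nfkb2. Among the genes the dimers switch on are several of their own subunits and inhibitors, so that in macrophages stimulated by microbial products or cytokines the response is limited by newly made IkB alpha and A20.

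The promoters of the members are shown first, since a kappa B site is the sequence through which the dimers act. Promoters from RefSeq (GRCm38.p6, 250 bases before to 50 after a start) were found for 7 of the 10 members and held 10 starts in all. Both strands were searched for the kappa B consensus, which reads GGG, a purine, any pair of bases, a pair of pyrimidines and CC, and for a stricter form with TT and 1 pyrimidine after the purine and 1 free base. At least 1 match to the consensus lay in 6 of the 7 members with a promoter and a stricter match in 5 of them. Of all 27025 genes in the set, 9.55% held the consensus in at least 1 promoter and 1.85% the stricter form, and of all 32851 promoters 8.46% and 1.62% did. Each match is printed below in capitals with the 10 bases on either side, and overlapping matches share 1 line. Positions count from the start site as 0, and the last 2 lines of Nfkb2 are relative to the second of its 3 starts.
Bcl3, chr7:19822734-19822763 (minus strand), 2 to 11 from the start: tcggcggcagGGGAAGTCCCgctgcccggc
Tnfaip3, chr10:19015516-19015545 (minus strand), -125 to -116 from the start: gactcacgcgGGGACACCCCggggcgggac
Tnfaip3, chr10:19015403-19015432 (minus strand), -12 to -3 from the start: aatttccatcGGAAATCCCCctgttggcaa
Rel, chr11:23771041-23771071 (minus strand), -92 to -82 from the start: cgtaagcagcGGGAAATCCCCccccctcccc
Nfkbia, chr12:55492657-55492686 (minus strand), -29 to -20 from the start: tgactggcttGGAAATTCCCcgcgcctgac
Nfkbie, chr17:45555584-45555613 (plus strand), -106 to -97 from the start: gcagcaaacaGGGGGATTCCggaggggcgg
Nfkb2, chr19:46304688-46304718 (plus strand), -39 to -29 from the start: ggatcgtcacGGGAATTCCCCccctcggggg
Nfkb2, chr19:46304716-46304745 (plus strand), -11 to -2 from the start: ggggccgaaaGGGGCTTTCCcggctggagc
Nfkb2, chr19:46305449-46305478 (plus strand), -236 to -227 from the start: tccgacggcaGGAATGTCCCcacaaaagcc
Nfkb2, chr19:46305695-46305724 (plus strand), 10 to 19 from the start: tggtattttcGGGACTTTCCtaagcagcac

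Matches were seen in members whose level differed between the groups and in members whose level did not pass the test, as described below. Rel, which was not called in any comparison, held 2 overlapping stricter matches from -92 to -82 relative to its start. Rela, which was called higher, held none in its 300 bases. The promoter of Nfkbia, whose match ends at -20, and that of Tnfaip3, with a stricter match from -12 to -3, are given whole, because the first gene rose and the second was not called.
Nfkbia promoter, chr12:55492598-55492897 (minus strand): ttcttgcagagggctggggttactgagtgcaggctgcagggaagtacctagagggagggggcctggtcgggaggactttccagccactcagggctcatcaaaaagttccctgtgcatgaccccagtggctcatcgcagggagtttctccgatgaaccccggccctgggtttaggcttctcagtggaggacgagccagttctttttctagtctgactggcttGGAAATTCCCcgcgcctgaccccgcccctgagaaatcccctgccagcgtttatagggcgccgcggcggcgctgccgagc
Tnfaip3 promoter, chr10:19015361-19015660 (minus strand): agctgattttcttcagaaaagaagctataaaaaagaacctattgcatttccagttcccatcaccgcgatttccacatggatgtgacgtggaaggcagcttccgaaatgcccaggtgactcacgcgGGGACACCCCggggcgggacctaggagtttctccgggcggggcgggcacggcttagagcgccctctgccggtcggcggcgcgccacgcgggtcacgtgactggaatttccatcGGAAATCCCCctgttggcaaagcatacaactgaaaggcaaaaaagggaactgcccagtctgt

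**Figure D1:**
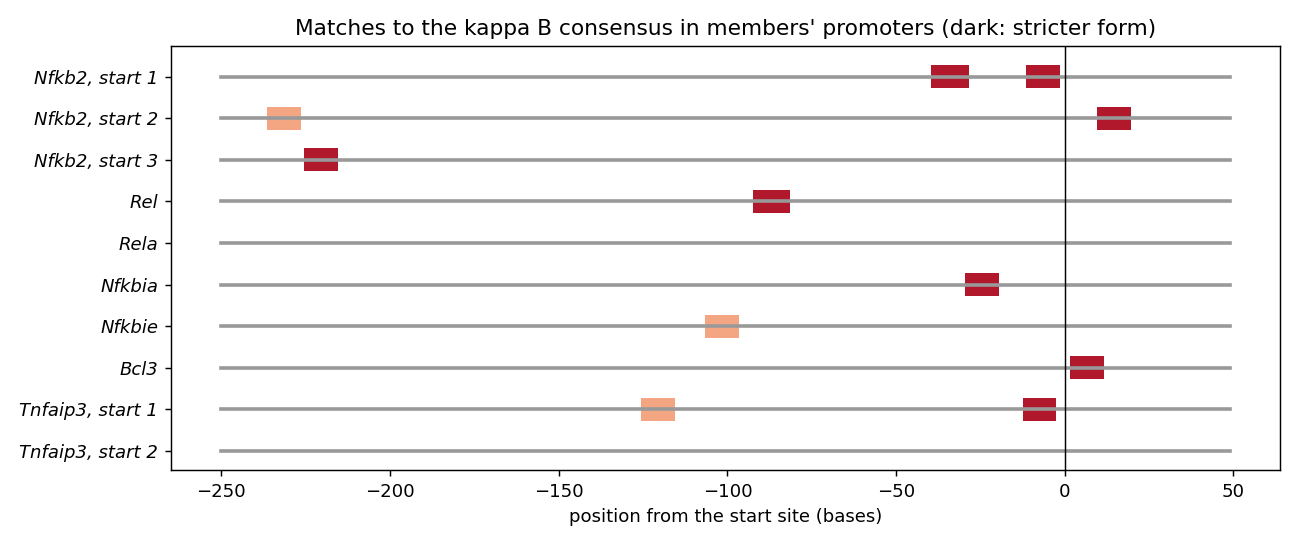
Position of matches to the kappa B consensus in the promoters of 7 members, from 250 bases before to 49 after each start site, which is 0 on the axis (bases). Dark boxes hold at least 1 stricter match and light boxes only the consensus, and the grey line is the stretch searched: 8 of the 10 promoters hold a match, and Rela and the second, downstream start of Tnfaip3 hold none.

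A match in these letters is a description of the window and was not tested for binding.

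Expression was given as FPKM, fragments per kilobase of transcript, scaled to the mapped fragments of the sample. Differences are log2 fold changes of FPKM + 1 with their standard error (SE), and a gene was called at an adjusted p under 0.05 (limma, Benjamini-Hochberg over 11419 genes that averaged 1 FPKM or more). All 10 members passed that filter, and each had a mean above 1 FPKM in all 3 groups. The summed FPKM per sample ran from 283362 to 307552, and the depth implied by the smallest values was 15.5 to 30.3 M fragments per sample. Replicates of a group correlated at 0.982 to 0.993. Many genes differed between the miRNA groups and the controls, so a call by itself says little here. With miR-144, 67.2% of the tested genes were called, 47.1% higher and 20.1% lower, and the groups did not overlap in 53.9%. With miR-451a, 68.3% were called, 48.1% higher and 20.3% lower, and the groups did not overlap in 55.2%. The typical (median) tested gene was itself shifted by 0.13 (miR-144) and 0.14 (miR-451a) on the log2 scale, and this shift is contained in the changes given below, which are against control as fitted. After median centring, which removes it, the rises of the 8 called members ran from 0.16 (Nfkb1) to 1.997 (Nfkbiz) in the miR-144 group and from 0.19 (Nfkb1) to 2.03 (Nfkbiz) in the miR-451a group. Of the called genes 70.1% were higher with miR-144, against 50.01% after median centring, 52.3% after quantile normalization and 76.5% after rescaling to TPM. With miR-451a these shares were 70.3%, 49.6%, 52.3% and 77.3%.

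Of the 10 members 8 were higher in both miRNA groups than in the controls, without overlap between the samples. None was called lower on the values as deposited, although Rel and, with miR-144, Tnfaip3 were called lower after median centring or quantile normalization. The median log2 fold change of the 10 members was 0.51 (miR-144) and 0.54 (miR-451a). Among the members the IkB family rose most, with 4 of 4 genes called higher and medians of 1.12 and 1.13. Other IkB genes, which are not members and went both ways, are given below. Of the subunits 4 of 5 were called higher, with medians of 0.45 and 0.44. Rel and Tnfaip3 were the members not called. The same 5 control samples stand in both comparisons. In bulk RNA, fewer cells of a type and less RNA per cell cannot be told apart.

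**Figure D2:**
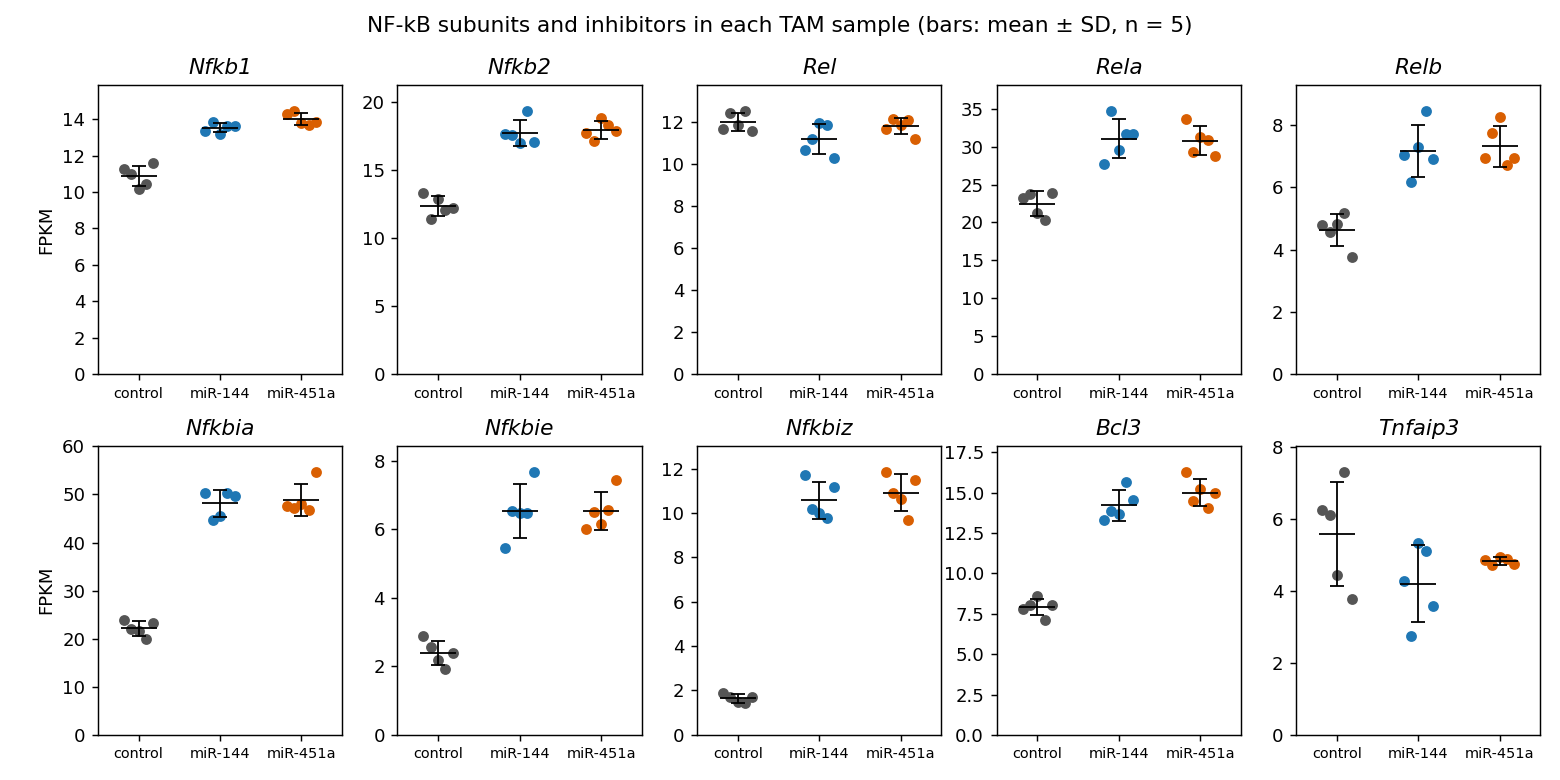
FPKM of the 10 members in every TAM sample, 1 panel per gene, with control in grey, miR-144 in blue and miR-451a in orange. Points are samples and black bars the mean ± SD (n = 5), and in 8 panels all samples of both miRNA groups lie above all controls, whereas in the panels of Rel and Tnfaip3 the groups overlap.

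The canonical subunit Rela (chr19:5637483-5648130, plus strand, GENCODE M21 on GRCm38 here and below) is the main transactivating partner of p50. Its FPKM in control replicates 1 to 5 was 23.2, 23.7, 21.3, 20.4 and 23.9. In the miR-144 group it was 27.8, 34.7, 29.5, 31.6 and 31.7. In the miR-451a group it was 33.7, 29.3, 31.2, 30.9 and 28.8. The lowest sample of either miRNA group thus exceeded the highest control. The means were 22.5 ± 1.59, 31.1 ± 2.59 and 30.8 ± 1.93 (SD, n = 5), and Rela rose by 0.45 (SE 0.06, adjusted p = 1.22e-05) with miR-144 and 0.44 (SE 0.06, adjusted p = 1.46e-05) with miR-451a.

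Nfkb1 (chr3:135584655-135691547, minus strand) encodes p105, which is both the precursor of p50 and an IkB-like inhibitor. The controls had 11.2, 10.97, 10.2, 10.4 and 11.6 FPKM. The miR-144 samples had 13.4, 13.8, 13.2, 13.6 and 13.6. The miR-451a samples had 14.3, 14.4, 13.8, 13.7 and 13.8. This was the smallest rise among the called members, 0.29 (SE 0.03, adjusted p = 1.78e-06) and 0.34 (SE 0.03, adjusted p = 3.28e-07). The coefficient of variation of Nfkb1 was 5.25% in the controls and 1.82% and 2.48% in the miRNA groups. Among all tested genes 30.1% rose more with miR-144 and 27.4% more with miR-451a. After median centring the rise of Nfkb1 was 0.16 and 0.19 and was still called.

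Rel (chr11:23736847-23770970, minus strand) encodes c-Rel, the third subunit with a transactivation domain. Its controls had 11.7, 12.4, 11.9, 12.5 and 11.6 FPKM. The miR-144 samples had 10.7, 11.2, 11.96, 11.9 and 10.3, and the miR-451a samples 11.7, 12.2, 11.9, 12.1 and 11.2. The 3 groups overlapped. The difference was -0.09 with miR-144 (95% interval -0.18 to -0.01, adjusted p = 0.0567) and -0.02 with miR-451a (95% interval -0.11 to 0.06, adjusted p = 0.636). Rel lay below the median gene in both comparisons, and it was called lower after median centring (-0.23, adjusted p = 0.000213, and -0.17, adjusted p = 0.00249) and after quantile normalization (-0.19, adjusted p = 0.00177, and -0.13, adjusted p = 0.0222). It was also called lower with miR-144 without miR-144 replicate 3 (adjusted p = 0.0244) or replicate 4 (adjusted p = 0.0293).

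The alternative branch rose in both of its subunits. Nfkb2 (chr19:46304320-46312385, plus strand) encodes p100, which is cut to p52. Its controls had 13.3, 11.4, 12.9, 12.1 and 12.2 FPKM, the miR-144 samples 17.7, 17.6, 17.0, 19.3 and 17.1, and the miR-451a samples 17.7, 17.1, 18.8, 18.3 and 17.9. It rose by 0.49 (SE 0.04, adjusted p = 1.21e-07) and 0.50 (SE 0.04, adjusted p = 7.37e-08), and every miRNA sample was above every control. In the GENCODE M21 annotation, exons of Psd and of another gene lie on the opposite strand within its exons, and 18.5% of its transcript, cut into runs of 50 bases, is found in other genes' transcripts too. Whether the counting used strand is not given in the sources used here, so part of its reads could belong to those genes.

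Relb (chr7:19606217-19629438, minus strand), the partner of p52, had 4.79, 4.56, 4.82, 5.17 and 3.78 FPKM in the controls. With miR-144 it had 7.03, 6.18, 7.30, 8.45 and 6.91, and with miR-451a 6.93, 7.74, 8.26, 6.72 and 6.95. It showed the largest log2 rise of the subunits, 0.54 (SE 0.08, adjusted p = 2.38e-05) and 0.57 (SE 0.08, adjusted p = 1.34e-05). Its mean level stayed below those of the other 4 subunits in all 3 groups.

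Among the inhibitors, Nfkbia (chr12:55489410-55492647, minus strand) encodes IkB alpha, the fast feedback inhibitor of Rela dimers. Control samples had 23.9, 22.03, 21.7, 19.9 and 23.2 FPKM. The miR-144 samples had 50.4, 44.7, 45.6, 50.3 and 49.6. The miR-451a samples had 47.6, 47.2, 48.0, 46.7 and 54.7. The level was about doubled, with a ratio of mean FPKM of 2.17 and 2.21, and rose by 1.09 (SE 0.06, adjusted p = 1.62e-10) and 1.11 (SE 0.06, adjusted p = 1.21e-10).

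Nfkbie (chr17:45555703-45563169, plus strand) encodes IkB epsilon, a cytoplasmic inhibitor with a slower feedback. Its FPKM was 2.87, 2.55, 2.20, 1.92 and 2.39 in the controls. It was 5.44, 6.55, 6.48, 6.48 and 7.67 with miR-144 and 6.02, 6.52, 6.15, 6.55 and 7.43 with miR-451a. The rise of 1.15 (SE 0.08, adjusted p = 8.40e-09) and 1.16 (SE 0.08, adjusted p = 7.59e-09) was close to that of Nfkbia on the log2 scale of FPKM + 1, while the ratio of mean FPKM was larger, 2.73 and 2.74.

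Nfkbiz (chr16:55811375-55838899, minus strand) encodes the nuclear protein IkB zeta, which binds p50 and helps to switch on secondary response genes such as Il6. It was the lowest member in the controls, with 1.90, 1.69, 1.497, 1.42 and 1.69 FPKM. It reached 11.7, 10.2, 10.02, 9.77 and 11.2 with miR-144 and 11.9, 10.9, 10.6, 9.67 and 11.5 with miR-451a. This was the largest rise of the 10 members, 2.13 (SE 0.06, adjusted p = 3.01e-13) and 2.17 (SE 0.06, adjusted p = 2.28e-13), with ratios of mean FPKM of 6.44 and 6.65. Only 0.525% and 0.517% of the tested genes rose more.

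Bcl3 (chr7:19808462-19822770, minus strand), a nuclear IkB protein that binds p50 and p52 dimers, had 7.78, 8.05, 8.57, 7.14 and 8.04 FPKM in the controls. It had 13.3, 13.8, 13.7, 15.7 and 14.6 with miR-144 and 16.3, 14.5, 15.2, 14.1 and 14.97 with miR-451a. It rose by 0.77 (SE 0.05, adjusted p = 3.73e-09) and 0.85 (SE 0.05, adjusted p = 1.23e-09). Exons of Gm16175 on the opposite strand overlap those of Bcl3, but only 0.389% of its 50-base runs are found in other genes' transcripts.

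Tnfaip3 (chr10:19000910-19015657, minus strand) encodes A20, an enzyme that edits ubiquitin chains and shuts off the signal upstream of the IKK complex. Its controls had 6.25, 6.13, 4.45, 7.32 and 3.77 FPKM. The miR-144 samples had 4.27, 2.76, 5.33, 5.11 and 3.599, and the miR-451a samples 4.86, 4.73, 4.96, 4.90 and 4.75. Unlike Nfkbia, Nfkbie, Nfkbiz and Bcl3 it had its highest mean in the controls, 5.58 ± 1.44 against 4.21 ± 1.07 and 4.84 ± 0.0991 (SD, n = 5), and the samples of all 3 groups overlapped. The difference was -0.33 with miR-144 (95% interval -0.66 to -0.01, adjusted p = 0.0651) and -0.14 with miR-451a (95% interval -0.47 to 0.18, adjusted p = 0.415). With miR-144 it was called lower after median centring (-0.47, adjusted p = 0.0154) and quantile normalization (-0.47, adjusted p = 0.0147), and without control replicate 3 (adjusted p = 0.0433), control replicate 5 (adjusted p = 0.0136), miR-144 replicate 3 (adjusted p = 0.0319) or miR-144 replicate 4 (adjusted p = 0.0406).

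The spread of Tnfaip3 differed between the groups. Its coefficient of variation was 25.8% in the controls and 25.3% with miR-144, where 6.66% and 7.71% of the tested genes varied more. With miR-451a it was 2.05%, and 97.6% of the tested genes varied more. The median coefficient of variation of the tested genes was 7.06%, 7.53% and 7.60% in the 3 groups, and the other 9 members lay between 1.82% and 15.01%. This difference in spread was not tested.

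**Figure D3:**
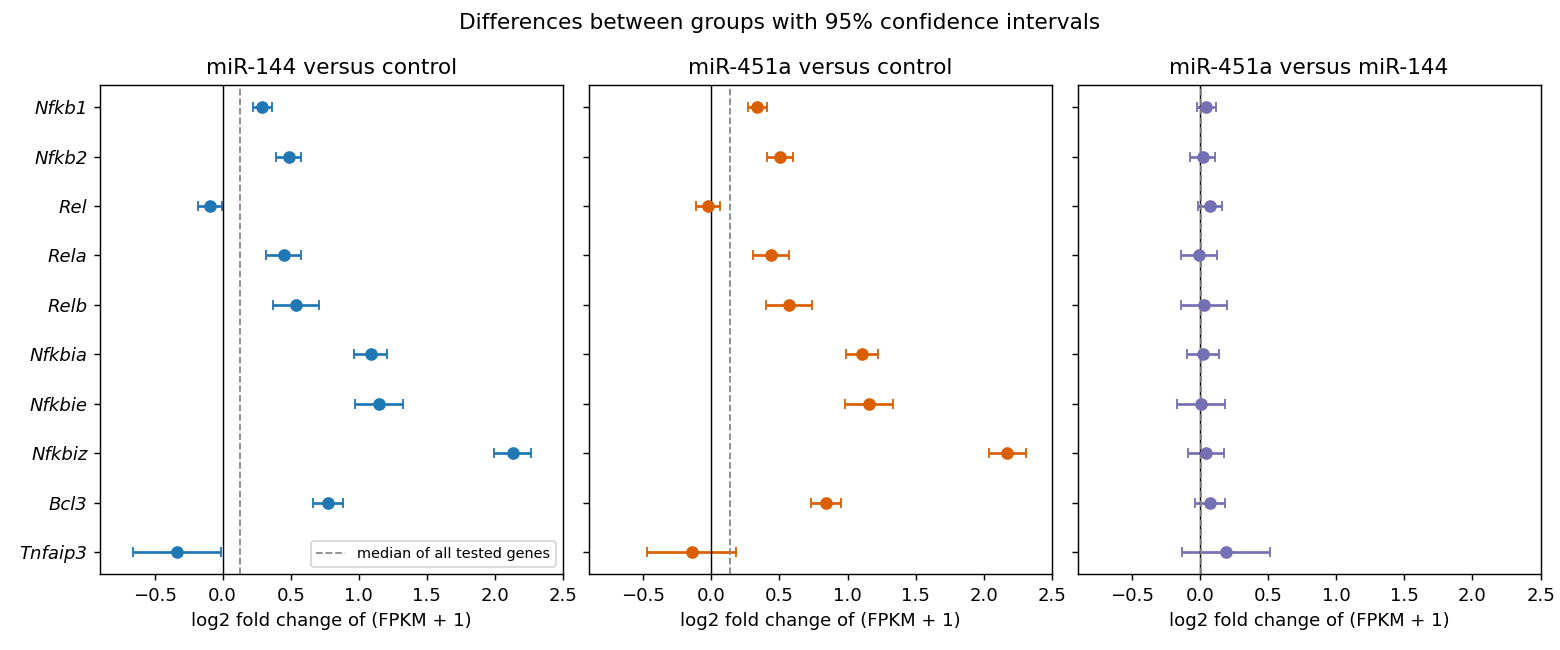
Log2 fold change of FPKM + 1 of each member (x axis) in the 3 comparisons, with 95% confidence intervals from limma. The dashed line is the median of all 11419 tested genes; in both comparisons with control 8 members lie to its right and Rel and Tnfaip3 to its left, and between miR-451a and miR-144 every interval includes 0.

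When TAMs of both miRNA groups were compared with each other, none of the 10 members was called and none was without overlap. Of all tested genes 0% were called by limma in that comparison, with 596 genes at an unadjusted p under 0.05, and the groups did not overlap in 0.849%. The differences of the members ran from -0.01 for Rela to 0.19 for Tnfaip3. The 95% interval was -0.02 to 0.12 for Nfkb1, -0.10 to 0.14 for Nfkbia and -0.09 to 0.18 for Nfkbiz, and it was widest for Tnfaip3, -0.14 to 0.51. These intervals bound the differences and do not show that the groups were alike.

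The order of the levels, which FPKM allows because it is per length, differed between the controls and the miRNA groups. In the controls Rela and Nfkbia stood together at the top with overlapping samples, at means of 22.5 and 22.1 FPKM. Nfkb2 and Rel (12.4 and 12.02), whose samples also overlapped, and Nfkb1 (10.9) came next. The lowest control sample of Nfkb2 (11.4 FPKM) lay below the highest of Nfkb1 (11.6 FPKM), so these overlapped too. Bcl3, Tnfaip3, Relb, Nfkbie and Nfkbiz followed, and among these the samples of Bcl3 and Tnfaip3 and those of Tnfaip3 and Relb overlapped. In both miRNA groups Nfkbia stood alone at the top, above Rela and Nfkb2, with no overlap between these neighbours. Nfkbiz moved from the lowest place to the seventh, next to Rel, and Tnfaip3 took the lowest place below Nfkbie. The overlapping neighbours in the miRNA groups were Bcl3 with Nfkb1, Rel with Nfkbiz, and Relb with Nfkbie.

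Ratios within a sample, which do not change when a sample is multiplied by a common factor, showed the same unequal movement. Nfkbia to Rela was 0.985 ± 0.0416 in the controls, 1.56 ± 0.187 with miR-144 and 1.59 ± 0.185 with miR-451a (SD, n = 5), and the highest control, 1.03, lay below the lowest miRNA sample, 1.29. Nfkbiz to Nfkbia went from 0.0739 ± 0.00421 to 0.220 ± 0.0150 and 0.224 ± 0.0170. Rel to Rela went from 0.537 ± 0.0516 to 0.363 ± 0.0365 and 0.385 ± 0.0246. These 3 ratios did not overlap between controls and either miRNA group. Of single tested genes 53.9% (miR-144) and 55.2% (miR-451a) did not overlap with the controls either, and the share for ratios in general was not computed.

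Tnfaip3 to Nfkbia, the balance of the 2 feedback inhibitors named above, was 0.255 ± 0.0782 in the controls, 0.0874 ± 0.0221 with miR-144 and 0.0994 ± 0.00725 with miR-451a. Its lowest control, 0.162, was above the highest miR-144 sample, 0.117. Bcl3 to Nfkb1 went from 0.729 ± 0.0659 to 1.05 ± 0.0647 and 1.07 ± 0.0548, also without overlap. Relb to Rela was 0.207 ± 0.0362, 0.233 ± 0.0353 and 0.239 ± 0.0269, and Nfkb2 to Nfkb1 was 1.14 ± 0.0943, 1.31 ± 0.0671 and 1.29 ± 0.0743, and for both of these the groups overlapped. The ratios are given as descriptions with no test.

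**Figure D4:**
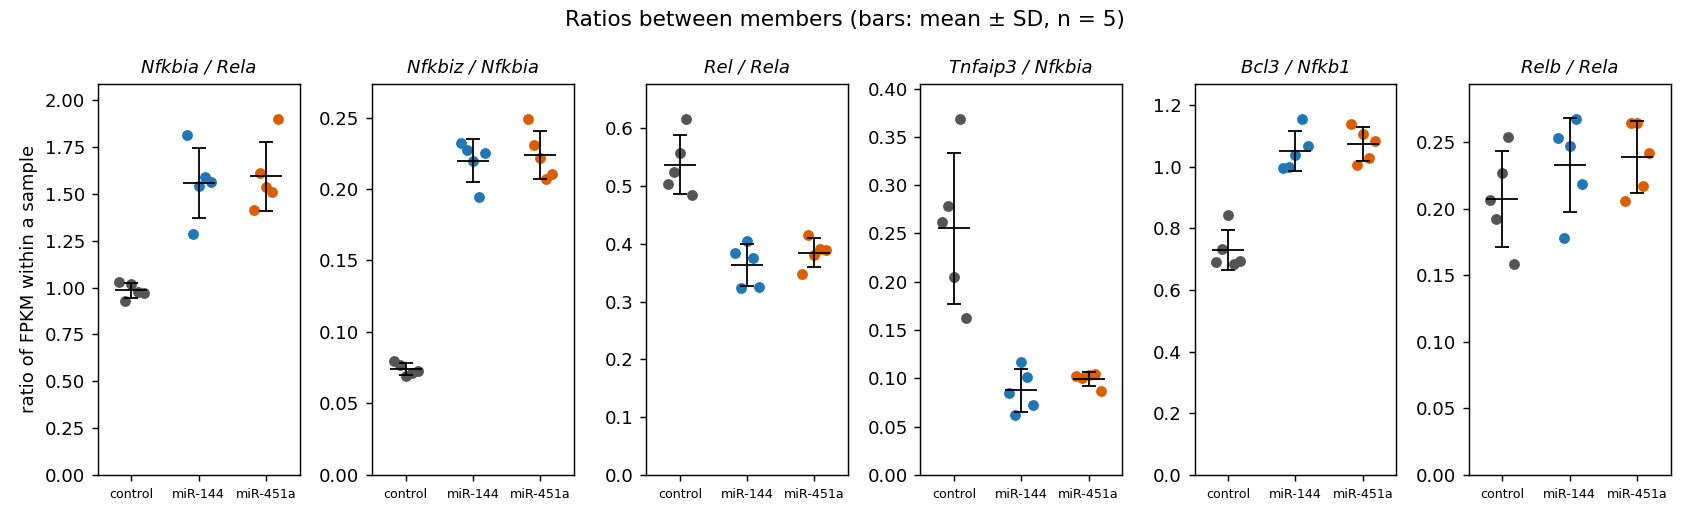
Ratio of the FPKM of 2 members within each sample (y axis), 1 panel per pair, with control in grey, miR-144 in blue and miR-451a in orange. Points are samples and bars the mean ± SD (n = 5): the controls stand apart from both miRNA groups in the first 5 panels, and the groups overlap in the panel of Relb to Rela.

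Whether members vary together from sample to sample was asked of 5 pairs, over the deviations of the 15 samples from their group means. The closest pair was Nfkbia and Nfkbiz, with a Pearson r of 0.635 (permutation p = 0.0232, adjusted over 5 pairs 0.116) and a Spearman rho of 0.65 (permutation p = 0.0191, adjusted 0.0957), and r was 0.539 without control replicate 1 and miR-451a replicate 5. Pearson r was 0.385 for Nfkb2 and Relb, 0.329 for Nfkb1 and Nfkbia, -0.13 for Nfkb1 and Nfkb2 and -0.10 for Nfkbia and Tnfaip3. Their adjusted permutation p-values were 0.519, 0.528, 0.757 and 0.757. Their Spearman rho was 0.221, 0.364, -0.15 and -0.08, with adjusted permutation p-values of 0.767, 0.605, 0.799 and 0.799. Without the 2 samples farthest from the median, r was 0.101, 0.268, 0.05 and -0.22. No pair passed the correction.

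Over all 15 samples, group differences included, the genes most like a member were found by Pearson r of log2(FPKM + 1) among 11409 tested genes that are no members. For Nfkbia they were Fmnl1 (r = 0.995), Sh3bp1 (r = 0.994) and Plxnb2 (r = 0.994). For Rela they were Senp7 (r = 0.967), Ptk7 (r = 0.962) and Pcgf2 (r = 0.962). For Tnfaip3 they were Hspd1-ps3 (r = 0.863), Gm6055 (r = 0.823) and Mthfs (r = 0.747), the first of which is a pseudogene that can share reads with its parent gene. These values follow the 3 groups and common scaling, and are descriptive.

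The rest of the pathway was read from a list of 93 genes in 5 roles, of which 85 were tested. With miR-144 46 of them were called higher (54.1%) and 21 lower (24.7%), and with miR-451a 48 (56.5%) and 21 (24.7%). Among all tested genes these shares were 47.1% and 20.1% with miR-144 and 48.1% and 20.3% with miR-451a, so both shares of the list lay above them. The median was 0.23 and 0.19. After median centring 36 genes of the list were higher (42.4%) and 24 lower (28.2%) with miR-144, against 30.8% and 30.7% of all tested genes. With miR-451a 35 were higher (41.2%) and 27 lower (31.8%), against 31.3% and 31.8%. Of the 8 listed genes not tested, all under the minimum mean of 1 FPKM, 7 were target genes. None was called between miR-451a and miR-144.

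The IKK complex with its upstream kinases and their adaptors included no gene called lower on the deposited values, although 1 was with miR-451a after median centring or quantile normalization. Of 11 genes 9 were called higher in each comparison, beside 47.1% (miR-144) and 48.1% (miR-451a) of all tested genes. After median centring 5 were, beside 30.8% and 31.3%. Map3k14, the NIK kinase of the alternative branch, went from 2.14 ± 0.206 FPKM in the controls to 5.81 ± 0.437 and 6.19 ± 0.205, a rise of 1.12 (SE 0.05, adjusted p = 4.77e-11) and 1.20 (SE 0.05, adjusted p = 1.98e-11). Tab2, an adaptor of the TAK1 kinase, rose by 0.79 (SE 0.11, adjusted p = 1.04e-05) and 0.57 (SE 0.11, adjusted p = 0.000252).

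Of the receptor adaptors and ubiquitin ligases 13 of 20 were called higher (65%) and 3 lower (15%) in each comparison. Beside them stand 47.1% and 20.1% of all tested genes with miR-144 and 48.1% and 20.3% with miR-451a. After median centring 10 were higher (50%) in each comparison, beside 30.8% (miR-144) and 31.3% (miR-451a) of all tested genes. On that scaling 4 were lower with miR-144 (20%) and 6 with miR-451a (30%), beside 30.7% and 31.8%. Myd88, the adaptor of most Toll-like receptors and of the IL-1 receptor, went from 20.8 ± 1.72 FPKM to 39.8 ± 3.41 and 39.7 ± 2.48, a rise of 0.90 (SE 0.07) in both comparisons with adjusted p = 8.81e-09 and 8.33e-09. Irak2, a kinase-like partner of Myd88, rose by 0.51 (SE 0.11, adjusted p = 0.00118) and 0.55 (SE 0.11, adjusted p = 0.00061). Ticam1, which encodes the other main Toll-like receptor adaptor TRIF, moved the opposite way, from 20.7 ± 1.07 to 12.2 ± 1.04 and 12.6 ± 0.799 FPKM, and fell by 0.72 (SE 0.06, adjusted p = 3.06e-08) and 0.68 (SE 0.06, adjusted p = 5.97e-08). Traf5, an adaptor of TNF family receptors, fell by 1.005 (SE 0.07, adjusted p = 3.37e-09) and 0.91 (SE 0.07, adjusted p = 1.03e-08).

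Of 3 other IkB genes, Nfkbil1 rose by 0.42 (SE 0.07, adjusted p = 5.43e-05) and 0.56 (SE 0.07, adjusted p = 3.07e-06). Nfkbib, which encodes IkB beta, fell by 0.20 (SE 0.05, adjusted p = 0.00147) and 0.12 (SE 0.05, adjusted p = 0.0274), and the second call was lost after rescaling to TPM (adjusted p = 0.416). The third, Nfkbid, had 5.51 ± 0.648 FPKM in the controls and 6.09 ± 0.362 and 6.24 ± 0.417 in the miRNA groups, with adjusted p = 0.0958 and 0.0421. The call with miR-451a was lost after median centring (a difference of 0.01, adjusted p = 0.862) and quantile normalization (0.01, adjusted p = 0.901), and with miR-144 it was called higher after rescaling to TPM (0.21, adjusted p = 0.0217). Of 18 other negative regulators 9 were called higher and 4 lower in each comparison, beside 47.1% and 20.1% of all tested genes with miR-144 and 48.1% and 20.3% with miR-451a. After median centring 7 were higher (38.9%) and 5 lower with miR-144, beside 30.8% and 30.7% of all tested genes, and 6 (33.3%) and 5 with miR-451a, beside 31.3% and 31.8%. Pdlim2, a ubiquitin ligase for nuclear Rela, rose by 1.12 (SE 0.07, adjusted p = 2.63e-09) and 1.23 (SE 0.07, adjusted p = 7.88e-10), and Tnfaip8l2 rose by 0.93 (SE 0.05, adjusted p = 1.07e-10) and 0.97 (SE 0.05, adjusted p = 6.65e-11). Tnip3, which encodes a partner of A20, fell by 1.06 (SE 0.07, adjusted p = 2.89e-09) and 1.07 (SE 0.07, adjusted p = 2.40e-09). Tollip, an inhibitor of IL-1 receptor signalling, fell by 0.49 (SE 0.03, adjusted p = 1.21e-09) and 0.50 (SE 0.03, adjusted p = 9.95e-10).

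Of the 33 tested target genes of the pathway 14 were called higher (42.4%) and 13 lower (39.4%) with miR-144, beside 47.1% and 20.1% of all tested genes, and 15 (45.5%) and 13 (39.4%) with miR-451a, beside 48.1% and 20.3%. After median centring 13 were higher (39.4%) and 14 lower (42.4%) in each comparison. On that scaling 30.8% of all tested genes were higher and 30.7% lower with miR-144, and 31.3% and 31.8% with miR-451a. Cxcl10, Il1b, Cxcl2 and Vcam1, which are among those called higher, had a control mean under 1 FPKM and entered the test through the miRNA groups, while Bcl2a1a, among those called lower, entered it through the controls. The counts therefore rest in part on how the genes were filtered.

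On the log2(FPKM + 1) scale Marcksl1, a regulator of actin, rose by 3.21 (SE 0.05, adjusted p = 4.33e-16) and 3.17 (SE 0.05, adjusted p = 4.86e-16), from a mean of 3.17 to 37.5 and 36.6 FPKM. The chemokine gene Cxcl10 had 0.371 ± 0.0905 FPKM in the controls and 7.74 ± 0.820 and 7.39 ± 1.29 with miR-144 and miR-451a, and only its levels are given because it entered the test through the miRNA groups. Which of them changed more depends on the scale, and their order turned after rescaling to TPM. The largest falls were of the stress-response genes Ier3, from a mean of 81.2 to 23.0 and 24.1 FPKM, and Gadd45b, from a mean of 70.0 to 22.5 and 21.4 FPKM.

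The cytokine and chemokine genes of the list, named after their values were seen, went both ways. Tnf (1.62 ± 0.397 to 7.39 ± 1.20 and 6.41 ± 1.09 FPKM), Ccl3 (23.0 ± 3.55 to 63.8 ± 7.70 and 62.9 ± 7.06 FPKM) and Ccl4 (7.91 ± 0.990 to 33.8 ± 5.15 and 31.6 ± 6.42 FPKM) rose. Il1b had 0.519 ± 0.0695 FPKM in the controls and 2.85 ± 0.364 and 2.60 ± 0.453 in the miRNA groups. Ccl2 fell from 41.1 ± 5.14 to 18.3 ± 3.52 and 15.4 ± 2.14 FPKM (adjusted p = 7.80e-07 and 9.25e-08). Ccl5 was not called, with 2.58 ± 0.621, 3.58 ± 1.09 and 2.94 ± 0.799 FPKM (adjusted p = 0.102 and 0.513). Il1a, under the minimum and not tested, had 0.668 ± 0.0473 FPKM in the controls and 0.269 ± 0.0613 and 0.238 ± 0.118 in the miRNA groups. Nos2, which encodes the inducible nitric oxide synthase and was not tested either, had a mean of 0.252 FPKM in the controls and of 0.0190 and 0.0118 in the miRNA groups. Il6 was near 0 in every group, at most 0.0869 FPKM in any control sample, and Il12b was listed at 0 in all 15 samples.

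**Figure D5:**
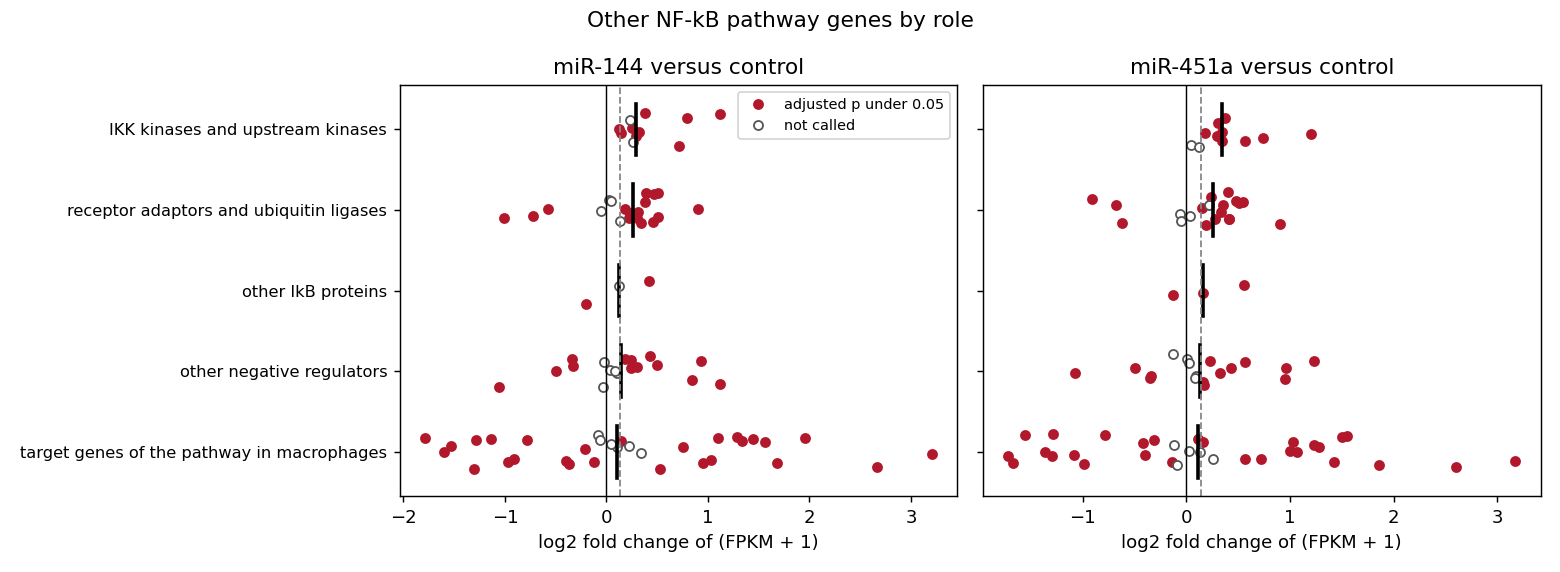
Log2 fold change of FPKM + 1 (x axis) of the 85 tested genes of the pathway list, by role, for both comparisons with control. Filled points are called genes, open points are not called, black bars are role medians and the dashed line is the median of all tested genes: no gene of the first role is called lower (1 is with miR-451a after median centring), while the target genes spread to both sides of 0.

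Some markers of the sort and of other cells also differed between the controls and the miRNA groups, in both directions. Adgre1, the gene of the F4/80 protein used in the sort, had a mean of 137 FPKM in the controls, 361 in the miR-144 and 354 in the miR-451a group, and of 7 macrophage genes with a single row, 5 were called higher and 2 lower in each comparison. All 5 hepatocyte markers, Alb among them, were listed at 0 in all samples. The summed level of 7 T cell markers was at most 0.490 FPKM, of 4 NK cell markers at most 0.416 FPKM, and of 5 B cell markers 0.138 to 0.379 FPKM in the controls and 1.11 to 1.75 FPKM in the miRNA groups. The 5 monocyte markers summed to 2.75 to 4.06 FPKM in the controls and 14.3 to 22.6 FPKM in the miRNA groups, the 4 fibroblast markers to 99.7 to 124 and 136 to 217 FPKM, and the 7 neutrophil markers to 64.9 to 79.2 and 44.1 to 53.2 FPKM. Among 6 Kupffer cell markers, which summed to 3.44 to 3.96 FPKM in the controls and 16.2 to 50.4 FPKM in the miRNA groups, Clec4f was listed at 0 in all samples. Single genes carried several of these sums, with means of 70.4 FPKM in the controls for Csf3r among the neutrophil markers, and of 29.8 and 1.15 FPKM with miR-144 for Cd5l among the Kupffer cell and Cd79b among the B cell markers. The part of these markers in the levels of the members was not tested.

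Genes that digestion of tissue can induce, several of which are immediate early genes, were more often lower than higher in the miRNA groups. The 14 genes of that list summed to 500 to 529 FPKM in the controls and to 254 to 297 FPKM in the miRNA groups, and of 13 tested 8 were called lower and 2 higher with miR-144 and 9 lower and 2 higher with miR-451a. Among all tested genes 20.1% were lower and 47.1% higher with miR-144, and 20.3% and 48.1% with miR-451a. Atf3, the highest of them in the controls, had a mean of 222 FPKM there, 67.7 in the miR-144 and 60.7 in the miR-451a group. In control replicates 1 to 5 the sum was 526, 500, 529, 504 and 500 FPKM, beside the Tnfaip3 levels given above. The part of this list in the difference between the groups was not tested.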

How the data were processed

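TAMs of 15 samples in 3 groups of 5 were compared, and groups and replicate numbers were taken from the sample titles. The authors deposited FPKM per gene and sample, made from Illumina reads. The submitters' processing notes name FastQC (version 0.11.2), STAR and StringTie. The genome build, the annotation and the strand setting of the counting are not given in the sources used here. The deposited FPKM table holds no counts, so depth is not known directly. An implied depth was estimated from genes with 1 transcript of over 1000 bases in GENCODE M21, and since 36.2% to 49.4% of low values lay on a step of 1 fragment, counts were not recovered. Intervals cover the spread between samples only.

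Values were taken as log2(FPKM + 1), genes averaging 1 FPKM or more were kept (11419 of 55335), and the 3 groups were fitted together in limma 3.58.1 (R 4.3.3) with a trend of variance on level, and p-values were adjusted by Benjamini-Hochberg and called at 0.05. The study's statistics section names tests between groups in general, and limma was used here because the table holds many genes. Fold changes on this scale understate the change of low genes. The fit was tested on simulated data of 11419 genes for miR-144 versus control, where 85 of 100 genes changed by 0.5 and 99 of 100 changed by 1 (log2) were recovered with 6 false calls. In that simulation only these genes were changed, with independent noise. In the data 67.2% of the tested genes were called with miR-144, so the simulation does not give the rate of false calls there.

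Pairs of members were tested with 100000 shuffles of samples within groups (two-sided). All 10 members were named. In each role of the pathway list the 2 called genes with the largest rise and the 2 with the largest fall with miR-144 were named, and the 3 genes most like Rela, Nfkbia and Tnfaip3. The members and lists were chosen with earlier results of these data known. Identifiers matched GENCODE M21 for 99.7% of rows, and the coordinates are of that annotation and not claimed for the authors' build. Itgam has 2 rows and was left out of the macrophage markers. A search of protein sequences was not run.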

Additional observations from a re-analysis of the deposited data

Results flagged for a closer look

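Within each group of 5 samples the highest and lowest values of every member were compared with the nearest other value, which made 30 groups. In 2 of them 1 sample stood apart, where chance gives about 1.5. Nfkb2 was 19.3 FPKM in miR-144 replicate 4, and the nearest sample had 17.7 FPKM, a gap of 0.722 of the range. Nfkbia was 54.7 FPKM in miR-451a replicate 5, and the nearest had 48.0 FPKM, a gap of 0.839 of the range. Both samples were the highest of their group, and both genes were called higher without them as well.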

How the results depend on the processing

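The 8 called members stayed called higher under every alternative run: other pseudocounts (0.1) and filters (none, or a mean of 5 FPKM), quantile normalization, TPM and median centring, a fit without the variance trend or of only 2 groups, a replicate block, and leaving out each sample. With the minimum of 5 FPKM, under which fewer genes are tested and Tnfaip3 is not, 4776 genes were called with miR-144 (7668 without it) and 4821 with miR-451a (7804). Leaving out 1 sample gave 7385 to 7682 and 7538 to 7817 calls. Between miR-451a and miR-144 it gave 0 to 2 calls, 2 without miR-144 replicate 4, miR-144 replicate 5 or miR-451a replicate 3, and none was a member. Rel and Tnfaip3, the members not called, passed the test under the settings given beside them and, for Rel, under the block given next, and the cause was not tested.

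Whether same-numbered samples deviate together was mixed. Their mean correlation was -0.0122, 0.140 and 0.101 for control and miR-144, control and miR-451a, and miR-144 and miR-451a, against 0.00312, -0.0347 and -0.0251 for other numbers. The lowest were -0.13, 0.0658 and -0.15, so not every pair was over 0.1, and 0, 3 and 1 of 5 samples were closest to their own number. The samples were therefore not treated as paired. The replicate block gave 7711, 7859 and 0 calls and changed 1 member, Rel with miR-144, which was then called lower (adjusted p = 0.0168). The depth of the samples is implied and not counted, which limits what can be said of the lowest levels.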
